A study of Mus musculus with 8 samples.

Results

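The enzymes of the kynurenine pathway, which breaks down the amino acid tryptophan, were followed in dendritic cells that had been sorted out of 2 organs of 4 mice, the bone marrow and the spleen. The 9 genes were Ido1, Ido2, Tdo2, Afmid, Kmo, Kynu, Aadat, Haao and Qprt, chosen by name, and each had 1 probe set that names that gene alone, out of 19938 genes measured this way. The bone marrow samples were labelled myeloid dendritic cells and the spleen samples classical dendritic cells, with 4 arrays in each group and 1 bone marrow and 1 spleen array per mouse. All mice were 8 weeks old and had the genotype labelled CX3CR1-gfp/+, and the labels name no treatment. The sources used here do not give the surface markers used for sorting. Values are intensities on a linear scale from Affymetrix mogene 1.0 ST arrays, which carry no read depth and no detection call, so a dim gene cannot be called absent.

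Tryptophan enters the pathway through dioxygenases that open its indole ring, Ido1, Ido2 and Tdo2, and the formamidase Afmid then releases kynurenine. Kynurenine can be hydroxylated by Kmo, cleaved by Kynu, or turned into kynurenate by aminotransferases such as Aadat, while Haao and Qprt carry the hydroxylated branch on through quinolinate toward NAD. In dendritic cells the pathway is known for restraining T cells, both by using up tryptophan and through kynurenine, a ligand of the aryl hydrocarbon receptor Ahr, and Ido1 is known as a gene that interferon-gamma induces.

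Of the 9 genes, 6 had an entry among RefSeq promoter sequences of build GRCm38.p6, namely Kmo, Afmid, Haao, Aadat, Qprt and Tdo2. The 250 bases before the start used in that table are shown for Kmo, a gene that was lower in bone marrow, and for Haao, a later step of the same branch that did not pass the test. The Kmo window ends just before the start of Kmo in the RefSeq gene annotation (175632193). Haao spans 83831348 to 83848981 in that annotation, so its window lies inside the annotated gene. The windows of Afmid and Aadat also lie inside their annotated genes. Capitals mark GAGGAA, the core letters bound by the myeloid factor PU.1, and GCGTG, the core letters bound by Ahr.
Kmo, chr1:175631943-175632192, plus strand: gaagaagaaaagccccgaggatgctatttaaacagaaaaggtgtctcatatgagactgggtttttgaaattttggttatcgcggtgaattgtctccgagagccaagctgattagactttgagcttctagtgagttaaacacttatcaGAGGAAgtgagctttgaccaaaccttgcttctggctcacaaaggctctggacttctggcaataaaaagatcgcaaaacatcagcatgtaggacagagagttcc
Haao, chr17:83846791-83847040, minus strand: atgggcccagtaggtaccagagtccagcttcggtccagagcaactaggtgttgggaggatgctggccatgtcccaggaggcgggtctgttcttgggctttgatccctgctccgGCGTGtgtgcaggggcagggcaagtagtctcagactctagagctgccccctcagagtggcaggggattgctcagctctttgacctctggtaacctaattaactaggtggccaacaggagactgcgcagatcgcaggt
Searched on both strands, GAGGAA occurred in the Kmo window, its first base 103 bases before the start, and in no other of the 6 windows, and 23.3% of all 32851 promoter windows of that length held it. GCGTG occurred in the windows of Haao and Tdo2, and 28.2% of all windows held it. The interferon element GAAANNGAAA and the kappaB sequence GGGANNTTCC occurred in none of the 6, against 2.98% and 1.21% of all windows. No matches overlapped. A match describes letters in a short window and is not evidence of binding.

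Kynu and Kmo were lower in bone marrow dendritic cells than in spleen dendritic cells, and the other 7 enzymes did not pass the test. Kynu, kynureninase, was 3.91-fold lower and Kmo, kynurenine 3-monooxygenase, was 1.62-fold lower in bone marrow. None of the 9 was called higher. Across all 19938 genes, limma called 18.5% at an adjusted p of 0.05 (9.2% lower and 9.26% higher in bone marrow), so 2 called of 9 members (22.2%) was a share near that of all genes. The members had a median log2 difference of -0.09, beside -0.0071 over all genes. With the dimmest 40% of genes left out, 6 members remained and Ido1, Tdo2 and Aadat did not. That setting called 3480 of 11963 genes, a larger share than over all genes.

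**Figure D1:**
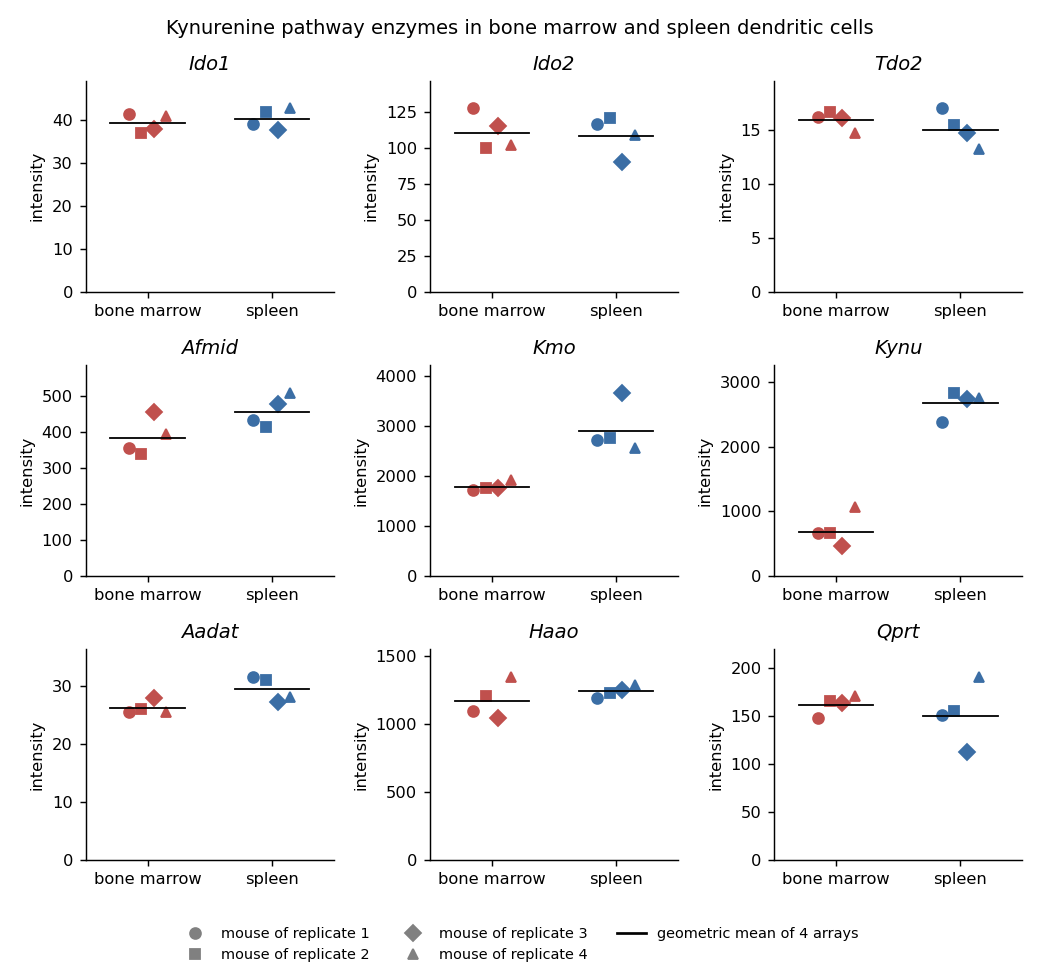
Intensity (linear scale from 0) of the 9 enzymes on each array, in pathway order, with bone marrow arrays in red at left and spleen arrays in blue at right of each panel. Marker shapes stand for the 4 mice and lines for geometric means of 4 arrays. Kynu and Kmo are the panels in which every bone marrow array lies below every spleen array.

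The first step of the pathway showed no difference past the test. Ido1, the dioxygenase that interferon-gamma induces, had intensities of 41.4, 37.0, 37.8 and 40.9 in bone marrow replicates 1 to 4, against 39.1, 41.9, 37.7 and 42.6 in spleen replicates 1 to 4. The groups overlapped, and the log2 difference was -0.04 ± 0.08 (SE, n = 4 per group, limma's adjusted p = 0.86, 95% interval -0.21 to 0.13). Ido2, its paralog and its neighbour in the RefSeq annotation, stood at 127, 99.8, 115 and 102 in bone marrow and at 117, 121, 89.9 and 109 in spleen. Its arrays overlapped as well, with a log2 difference of 0.03 ± 0.11 (adjusted p = 0.94, 95% interval -0.21 to 0.27), whose sign changed with the setting. Tdo2, the tryptophan dioxygenase known from liver, stood between 14.7 and 16.7 in bone marrow, against 13.3 to 17.0 in spleen (0.08 ± 0.09, adjusted p = 0.69, 95% interval -0.11 to 0.28).

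No member was at 0 on any array, and arrays of this kind give some signal for absent genes too. As a description of the dim end of the scale, 22 genes known from tissues other than blood, such as liver, muscle, lung and retina, had geometric mean intensities over the 8 arrays from 13.4 to 155 with a median of 73.2. The geometric means of Ido1, Ido2, Tdo2 and Aadat over the same arrays lay within those limits, and that of Qprt lay at the upper limit (155.5 against 155.3). Probe sets differ in brightness for equal amounts of RNA, so this places no member above or below background. An interval near 0 for these genes also holds only for the measured intensity, which includes whatever background lies under it. Of the 22 genes known from other tissues, 2 were called lower in bone marrow and 0 higher (9.09% called, beside 18.5% of all genes).

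Afmid, the formamidase that releases kynurenine, was dimmer in bone marrow in every mouse but did not pass the test. Its intensities were 356, 339.8, 456 and 396 in bone marrow replicates 1 to 4, against 433, 414, 478 and 510.5 in spleen replicates 1 to 4. Bone marrow replicate 3 lay inside the spleen range, so the groups overlapped. The log2 difference was -0.25 ± 0.11 (SE, n = 4 per group, limma's adjusted p = 0.14), with a 95% interval from -0.48 to -0.02 before adjustment over all genes. Without bone marrow replicate 3 it was -0.33 with an adjusted p of 0.043.

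Kmo fell in bone marrow. This enzyme of the outer mitochondrial membrane hydroxylates kynurenine and so commits it to the branch that leads to quinolinate. Its intensities were 1722, 1758, 1753 and 1915 in bone marrow replicates 1 to 4, against 2721, 2762, 3674 and 2561 in spleen replicates 1 to 4. Every bone marrow array lay below every spleen array. The groups did not overlap in 20.6% of all genes, 10.2% being lower and 10.4% higher in bone marrow, and in 2 of the 9 members, Kmo and Kynu. The log2 difference was -0.70 ± 0.11 (SE, n = 4 per group, limma's adjusted p = 4.1e-04, 95% interval -0.93 to -0.47). Within a mouse the spleen value was 1.58, 1.57, 2.10 and 1.34 times the bone marrow value for replicates 1 to 4. Spleen replicate 3 held the highest value, and without it the log2 difference was -0.59 (adjusted p = 3.1e-04).

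Kynu had the largest difference of the 9 members. Kynureninase, which needs vitamin B6, cleaves kynurenine to anthranilate and its hydroxylated form to hydroxyanthranilate. Its intensities were 656, 667, 465 and 1070.2 in bone marrow replicates 1 to 4, against 2373, 2836, 2743 and 2751 in spleen replicates 1 to 4. The highest bone marrow array lay well below the lowest spleen array, and the log2 difference was -1.97 ± 0.19 (SE, n = 4 per group, limma's adjusted p = 6.9e-06, 95% interval -2.38 to -1.56). Within a mouse the spleen value was 3.62, 4.25, 5.90 and 2.57 times the bone marrow value. The bone marrow arrays differed more among themselves than the spleen arrays, by 2.30-fold from lowest to highest, against 1.20-fold in spleen. Leaving out each array in turn gave log2 differences from -2.18, without bone marrow replicate 4, to -1.78, without bone marrow replicate 3.

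**Figure D2:**
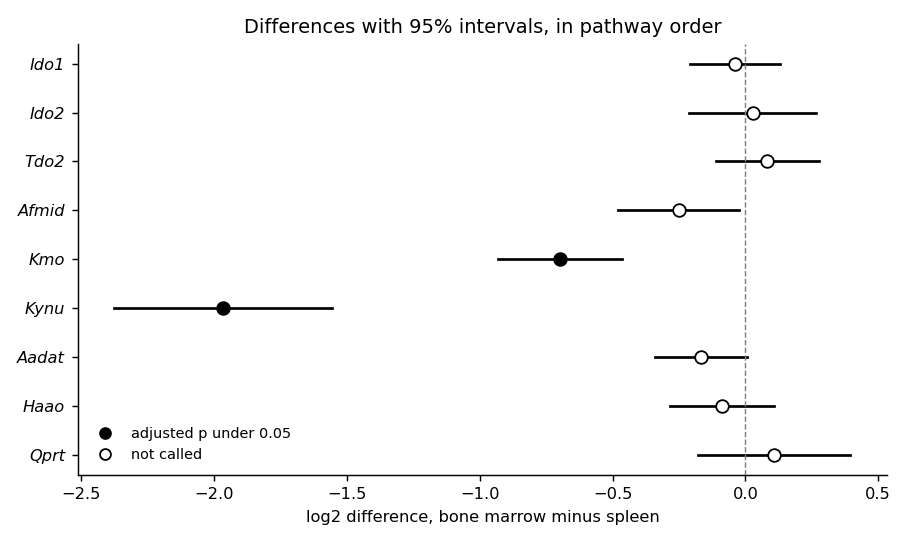
Log2 difference, bone marrow minus spleen, of the 9 enzymes in pathway order from the top, with 95% intervals from limma on 4 arrays per group. Filled points had an adjusted p under 0.05, which only Kmo (-0.70) and Kynu (-1.97) did, and the intervals of Ido1, Ido2, Tdo2, Aadat, Haao and Qprt include 0.

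The later steps did not pass the test. Haao, the dioxygenase that turns hydroxyanthranilate toward quinolinate, stood at 1091, 1202, 1041 and 1348 in bone marrow replicates 1 to 4 and at 1192, 1229, 1246 and 1289 in spleen replicates 1 to 4. Bone marrow arrays lay on both sides of the spleen arrays, with a log2 difference of -0.09 ± 0.09 (SE, n = 4 per group, limma's adjusted p = 0.65, 95% interval -0.28 to 0.11). Qprt, which joins quinolinate to a phosphoribosyl group on the way to NAD, stood at 147, 166, 163 and 171 in bone marrow and at 151, 155, 112 and 191 in spleen (0.11 ± 0.13, adjusted p = 0.73, 95% interval -0.18 to 0.40). Spleen replicate 3 was its lowest array, and without it the sign of the difference turned, to -0.03. Aadat, an aminotransferase that makes kynurenate, stood between 25.5 and 28.0 in bone marrow, against 27.3 to 31.7 in spleen (-0.17 ± 0.08, adjusted p = 0.21, 95% interval -0.34 to 0.01).

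Successive enzymes were also compared within each array, as the log2 ratio of a step to the step before it, which removes any scaling of the array. The ratio of Kynu to Kmo was lower in bone marrow by 1.27 on the log2 scale, and that of Haao to Kynu was higher by 1.88. Kynu is part of both ratios, so they are not separate results. In both ratios the 4 bone marrow arrays did not overlap the 4 spleen arrays. A 2-sided exact permutation test over the arrays gave p = 0.029 for each, the smallest value that 4 against 4 arrays can give, and 0.057 after Benjamini-Hochberg adjustment over the 4 ratios, so neither passed. That test sets the mouse aside. Within mice, the Kynu to Kmo ratio was lower and the Haao to Kynu ratio higher in bone marrow in all 4 mice, and the exact test that keeps the pairs gave p = 0.125 for each, the smallest value that 4 pairs allow. The ratio of Kmo to Afmid differed by -0.45 (exact p = 0.057, adjusted p = 0.076) and that of Qprt to Haao by 0.20 (exact p = 0.34, adjusted p = 0.34). A ratio of this kind shows unequal change between 2 probe sets and not which enzyme is the more abundant.

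Within the groups, Kynu and Haao varied together over the arrays. Bone marrow replicate 4 held the highest bone marrow value of both genes and bone marrow replicate 3 the lowest. Their log2 deviations from the group means correlated with Pearson's r = 0.93 over the 8 arrays, and those of Kynu and Kmo with r = 0.27. Over the raw log2 values of the same 8 arrays, Kynu and Kmo correlated with r = 0.91, a value that mostly holds the difference between the tissues. The deviations of Kmo and Qprt ran in opposite directions (r = -0.82), with spleen replicate 3 highest for Kmo and lowest for Qprt. Kynu with Haao and Kmo with Qprt were the highest and the lowest of 36 pairs of members by deviations, and they are given as a description.

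**Figure D3:**
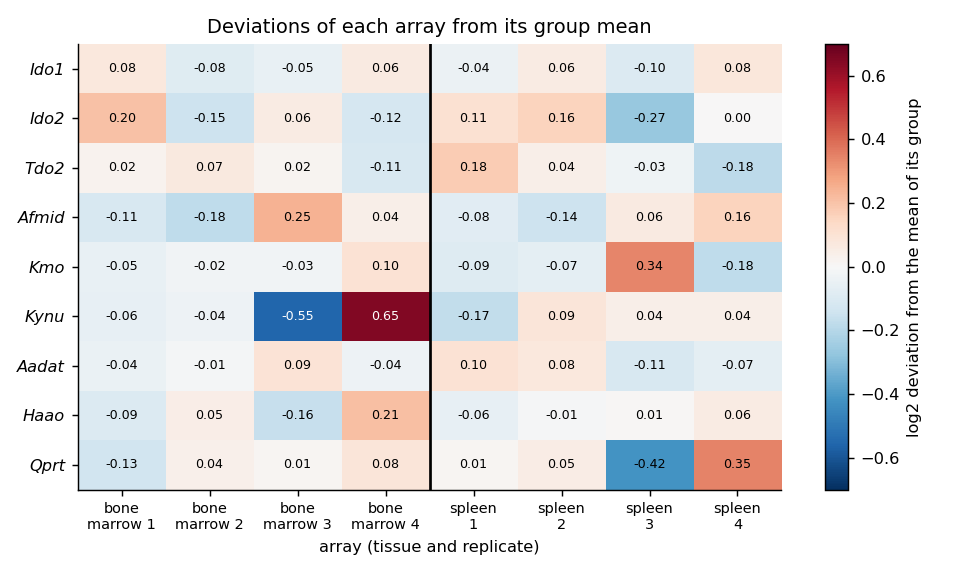
Log2 deviation of each array (columns, bone marrow at left) from the mean of its own group for the 9 enzymes (rows, in pathway order). Kynu is 0.65 above its group mean in bone marrow replicate 4 and 0.55 below it in replicate 3, and Haao deviates the same way in both arrays.

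The genes whose pattern over the 8 arrays was most like that of Kynu were Tnfrsf18 (Pearson's r = 0.999), Cyb561a3 (0.996) and Setbp1 (0.993). Tnfrsf18, which encodes the costimulatory receptor GITR, was 361 in bone marrow, against 639.6 in spleen by geometric mean. By deviations from the group means, those most like Kynu were Tnfrsf18 (0.992), Zfp870 (0.975) and Gucd1 (0.973). For Kmo they were Myh15 (0.994), Stkld1 (0.992) and Tank (0.991) over the raw values, and Sptlc1 (0.980), Nmt2 (0.972) and Nrd1 (0.966) by deviations. These are the highest values among all named genes over 8 arrays. Myh15 was dim, at 30.3 in bone marrow and 33.4 in spleen by geometric mean. Myh15, Gucd1, Sptlc1, Nmt2 and Nrd1 did not pass the test between the tissues.

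Markers of other cells differed between the same arrays. Beside the counts that follow, 9.26% of all genes were called higher and 9.2% lower in bone marrow. Among 10 genes that mark classical dendritic cells, 7 fell in bone marrow and none was higher, with summed intensities from 50392 to 54290.2 in bone marrow and from 59915 to 64177 in spleen. The 3 that did not pass were the class II genes H2-Ab1, H2-Aa and Cd74, which made up most of these sums in both tissues. Of 10 cDC1 markers 5 were lower and 1 higher, and the sums were 10535 to 11497 in bone marrow and 12424 to 15749 in spleen. All 11 measured monocyte and macrophage markers were higher in bone marrow, with sums from 32658 to 40710.0, against 6351 to 7505 in spleen. All 12 neutrophil markers were also higher, with sums from 20922 to 28720.1, against 1567 to 1879 in spleen. Of 10 cDC2 markers 4 were higher and 4 lower, and in the shorter lists 2 of 9 plasmacytoid dendritic cell, 1 of 7 B cell, 0 of 6 T cell and NK cell, 6 of 8 basophil and mast cell and 4 of 6 erythroid markers were higher, while 3, 4, 5, 1 and 1 of them were lower. The lower basophil and mast cell marker was Kit, which is also counted among the 7 classical dendritic cell markers that fell. Without a detection call, none of the cell types of these lists can be called absent from either sort. The part of these markers in the fall of Kynu and Kmo was not tested, and in RNA from whole sorted populations, fewer cells that express a gene and less RNA per cell cannot be told apart.

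Beside the array-to-array spread of Kynu in bone marrow, the summed intensities of some of these lists were as follows. The cDC1 markers summed to 10535, 11355, 10868 and 11497 in bone marrow replicates 1 to 4, and the neutrophil markers to 26767, 20922, 28720.1 and 26962. The classical dendritic cell markers summed to 53266, 54290.2, 50392 and 53378, and the monocyte and macrophage markers to 34023, 40710.0, 37590 and 32658. In replicate 3, where Kynu was lowest, the neutrophil sum was the highest of the 4 and the cDC1 sum was neither lowest nor highest. The classical dendritic cell sum, most of it from H2-Ab1, H2-Aa and Cd74, was lowest in replicate 3 and highest in replicate 2. H2-Ab1 alone was 14739 in replicate 3 and 16414 in replicate 2. Of the 10 markers in this sum, 7 were lowest and 0 highest in replicate 3, and 6 were highest and 1 lowest in replicate 4. The single cDC1 and neutrophil markers did not run together. In replicate 3, 4 of 10 cDC1 markers and 6 of 12 neutrophil markers were highest, and 3 of each in replicate 4, where Kynu was highest. Of the 11 monocyte and macrophage markers, 6 were lowest and 2 highest in replicate 4, where their sum was lowest. In replicate 3, 1 of them was highest and 1 lowest, and their sum was highest in replicate 2. Xcr1, the chemokine receptor of cDC1, was 108, 172, 119 and 179 in bone marrow, against 1559, 1651, 976 and 2481 in spleen. It was lowest in bone marrow replicate 1 and had the largest difference between the tissues of the 10 cDC1 markers. Clec9a, another of them, was 1239, 1033, 1041 and 1216 in bone marrow, against 1018, 988, 868 and 1355 in spleen. It did not pass (limma's adjusted p = 0.69). In spleen replicate 3, where Kmo was highest, 6 of 10 cDC1 markers were lowest and 1 was highest among the spleen arrays. In the same array 4 of 11 monocyte and macrophage markers were highest and 1 was lowest. Of the 10 classical dendritic cell markers, 6 were highest and 0 lowest there, and their sum was the highest of the spleen arrays. The part of these markers in the spread between arrays was not tested.

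Genes of amino acid transporters differed in both directions, though the lower call, that of Slc7a5, was not stable. Of 11 measured genes for tryptophan uptake and other uses of tryptophan, 4 were higher and 1 lower in bone marrow. That was 45.5% called, beside 18.5% of all genes. Slc7a8, a light chain of an exchanger of neutral amino acids, was 674, 1444, 691 and 559 in bone marrow, against 208, 124, 146 and 188 in spleen. All bone marrow arrays lay above all spleen arrays, replicate 2 far above the other 3, with a log2 difference of 2.27 ± 0.25 (SE, n = 4 per group, limma's adjusted p = 2.4e-05), or 1.97 without that replicate. Slc16a10, a transporter of aromatic amino acids, had a geometric mean of 479 in bone marrow, against 107 in spleen (2.17 ± 0.10, adjusted p = 1.3e-08). Slc36a4, a transporter that carries tryptophan and proline, was 607 in bone marrow, against 412 in spleen (0.56 ± 0.11, adjusted p = 0.0034). Slc7a5, the light chain of the exchanger LAT1, was lower, at 562 in bone marrow and at 727 in spleen (-0.37 ± 0.11, adjusted p = 0.033), while Slc3a2, its heavy chain, was higher, at 1497 in bone marrow, against 1179 in spleen (0.34 ± 0.10, adjusted p = 0.029). Neither of these 2 calls was stable to leaving out an array: that of Slc7a5 ended on leaving out replicate 2, 3 or 4 of bone marrow or replicate 1 or 4 of spleen (adjusted p from 0.070 to 0.086), and that of Slc3a2 on leaving out replicate 2 or 3 of bone marrow or replicate 2 or 4 of spleen (adjusted p from 0.052 to 0.091), and also with median centring (0.051).

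Wars, the tryptophanyl-tRNA synthetase and like Ido1 a gene that interferon-gamma induces, stood at 934 in bone marrow, against 906 in spleen (log2 difference 0.04 ± 0.10, limma's adjusted p = 0.88). Tph1 and Tph2, which start serotonin synthesis from tryptophan, had log2 differences of -0.0029 and 0.02 and did not pass. Of 8 genes of the response to amino acid starvation, 2 were higher and 1 lower in bone marrow (37.5% called, beside 18.5% of all genes). With the dimmest 40% of genes left out, 7 of the 8 remained, and 3480 of 11963 genes were called. The kinase Eif2ak4, or GCN2, which senses uncharged tRNA, was 428 in bone marrow, against 596 in spleen (-0.48 ± 0.08 SE, n = 4 per group, adjusted p = 0.0011). Ddit3, the stress factor CHOP, was 629.9 in bone marrow and 441 in the spleen arrays (0.52 ± 0.08, adjusted p = 4.8e-04), and Asns, asparagine synthetase, was 63.2 in bone marrow and 46.2 in the spleen arrays (0.45 ± 0.08, adjusted p = 0.0014). Atf4, the factor that acts upstream of both, stood at 851 in bone marrow, against 849 in spleen (adjusted p = 0.99, 95% interval of the log2 difference -0.16 to 0.17). Both levels of Asns lay within the limits given above for genes known from other tissues (13.4 to 155). Its call therefore holds only for the measured intensity.

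**Figure D4:**
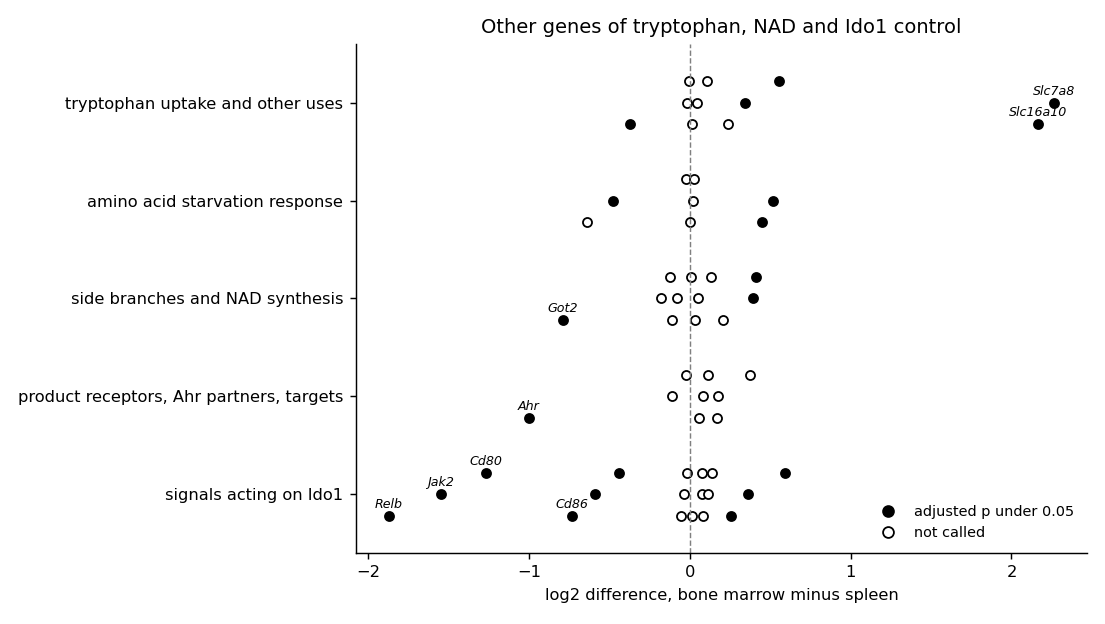
Log2 difference, bone marrow minus spleen, of the genes of 5 further lists (rows), each point 1 gene spread vertically for legibility. Filled points had an adjusted p under 0.05, and called genes beyond 0.7 in either direction are named. Slc7a8 and Slc16a10 lie at the right end (2.27 and 2.17), and Relb and Jak2 at the left (-1.87 and -1.55).

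Toward NAD and on the side branches, 2 of 12 genes were higher and 1 was lower in bone marrow. The share called was 25%, beside 18.5% of all genes. With the dimmest 40% of genes left out, 11 of the 12 remained, and 3480 of 11963 genes were called. Got2, a mitochondrial aspartate aminotransferase that can also act on kynurenine, was 1165, 1483, 1148 and 1529 in bone marrow, against 2688, 2315, 2127 and 2051 in spleen. Its groups did not overlap, and the log2 difference was -0.79 ± 0.12 (SE, n = 4 per group, limma's adjusted p = 3.3e-04). Nmnat3, which makes NAD from its mononucleotide, was 363 in bone marrow, against 276 in spleen (0.40 ± 0.08, adjusted p = 0.0029), and Nadk, the kinase that makes NADP, was 4057 in bone marrow and 3054 in the spleen arrays (0.41 ± 0.11, adjusted p = 0.016). The kynurenine aminotransferases Kyat1 and Kyat3 had log2 differences of -0.18 and -0.11 (adjusted p = 0.23 and 0.67) and Acmsd, which diverts the pathway away from quinolinate, of 0.03 (adjusted p = 0.89). Nampt and Naprt, which make NAD from vitamin B3 and not from tryptophan, had differences of 0.13 and 0.21 and did not pass (adjusted p = 0.57 and 0.17).

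Ahr, the receptor that binds kynurenine, was lower in bone marrow, and its well-known target genes did not pass the test. Ahr stood at 375, 358, 339 and 352 in bone marrow, against 715, 718, 750.5 and 667 in spleen (log2 difference -1.001 ± 0.075 SE, n = 4 per group, limma's adjusted p = 7.3e-07). It was the 1 gene called of 9 in its list (11.1%, beside 18.5% of all genes). The targets Cyp1a1, Cyp1b1, Ahrr and Nqo1 had differences of 0.08, 0.12, -0.02 and 0.17. Their geometric means were 58.6, 72.7, 82.9 and 42.4 in bone marrow, against 55.4, 67.1, 84.4 and 37.7 in spleen. All of these levels lay within the limits given above for genes known from other tissues (13.4 to 155). Their differences therefore hold only for the measured intensity. Tiparp, another target, was 482 in bone marrow, against 371 in spleen (0.38 ± 0.12, adjusted p = 0.055) and passed with the mouse as a replicate block (adjusted p = 0.011). Gpr35, a receptor proposed for kynurenate, stood at 1339 in bone marrow and 1447 in the spleen arrays (-0.11 ± 0.09, adjusted p = 0.50).

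Of 18 genes of signals known to act on Ido1, 3 were higher and 6 lower in bone marrow. Called genes made up 50% of this list, beside 18.5% of all genes. All 18 remained with the dimmest 40% of genes left out, where a larger share of genes was called (3480 of 11963). The 3 higher genes were receptor chains of interferons, with Ifnar1 at 1772 in bone marrow, against 1173 in spleen (log2 difference 0.59 ± 0.09 SE, n = 4 per group, limma's adjusted p = 2.5e-04), Ifnar2 at 3741 in bone marrow and 2909.9 in the spleen arrays (0.36 ± 0.08, adjusted p = 0.0063) and Ifngr2 at 3505 in bone marrow and 2937 in the spleen arrays (0.26 ± 0.07, adjusted p = 0.021). The Ifngr2 call ended with the mouse as a replicate block (adjusted p = 0.077) and on leaving out replicate 1 or 4 of bone marrow or replicate 2 of spleen (adjusted p from 0.057 to 0.058). Jak2, the kinase bound to the interferon-gamma receptor, was lower, at 737, 767, 655 and 899.7 in bone marrow, against 2048, 2344, 2346 and 2155 in spleen (-1.55 ± 0.10, adjusted p = 2.0e-07). Relb, a subunit of the non-canonical NF-kB pathway, was 452 in bone marrow, against 1649.6 in spleen (-1.87 ± 0.09, adjusted p = 2.1e-08). Cd80, whose binding by CTLA-4 is known to induce Ido1 in mouse dendritic cells, was 393 in bone marrow and 947 in the spleen arrays (-1.27 ± 0.11, adjusted p = 1.9e-06). The other 3 lower genes, named after their values were seen, were Cd86, Nfkb2 and Bin1. Irf1 and Irf8, factors that act on the Ido1 gene, had differences of 0.08 and -0.06 and did not pass (adjusted p = 0.65 and 0.86).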

How the data were processed

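The authors deposited a linear intensity for each probe set on each array. The submitters' processing notes name Affymetrix Expression Console 1.4, and the sources used here do not give how background was corrected, arrays normalized or probes summarized. Sorted cells were lysed directly and amplified from 100 pg to 2 ng of RNA, per the labels' protocols. Median intensities of the arrays lay between 125 and 135, and no value was at 0.

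Probe sets were named through the platform annotation. Of 35556 probe sets 21789 named exactly 1 gene, and the brightest per gene gave 19938 genes, 9 of them the pathway enzymes, each with 1 probe set. Intensities were converted to log2 and compared as bone marrow minus spleen with limma 3.58.1 (lmFit, eBayes) in R 4.3.3, without a filter, with Benjamini-Hochberg adjustment over all genes and a threshold of 0.05. Group levels are geometric means. Array number limits the precision.

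The members and gene lists were chosen with earlier results of these data known. Named genes were the 9 members, up to 3 called genes per direction of each further list, the closest patterns to the 2 members with the largest difference, and set markers; other names were chosen after their values were seen. List members without a probe set of their own are not analysed here. Per the labels, a replicate number marks 1 mouse in both tissues, and the deviations of its 2 arrays correlated with r from -0.18 to 0.10. The alternatives were quantile normalization, median centring, leaving out the dimmest 40% of genes, averaged probe sets, an offset of 32, an intensity trend with a robust prior, array weights, the mouse as a replicate block, and leaving out each array.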

Additional observations from a re-analysis of the deposited data

Results flagged for a closer look

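The 9 enzymes and the measured genes of the further pathway lists, 67 genes in all, were checked for a far array in each tissue. Of these 134 groups of 4 arrays, 11 had a gap between the extreme array and its nearest neighbour that was a larger part of the group's range than Dixon's 95% critical value for 4 values, and chance gives about 1 in 20. In bone marrow, replicate 1 was high for Slc7a5, at 611 against 544 to 548 in the other arrays (0.929 of the range), and for Kyat3, at 159.8 against 115 to 120.3 (0.860). The same replicate was low for Ifnar1, at 1674 against 1792 to 1813 (0.858), and for Kyat1, at 159.5 against 179.6 to 184 (0.843). Bone marrow replicate 4 was high for Wars, at 1078 against 876 to 899 (0.876), and low for Acmsd, at 39.8 against 42.6 to 43.1 (0.870). Bone marrow replicate 2 was low for Ahrr, at 77.2 against 84.5 to 85.4 (0.897). In spleen all 4 such arrays were replicate 4, which was low for Gcn1, at 296 against 444 to 453 (0.951), for Sesn2, at 481 against 1243 to 1353 (0.918), and for Wars, at 760.4 against 941 to 981 (0.835), and high for Ddit3, at 495 against 418 to 429.5 (0.843). None of the 9 pathway enzymes had such an array, though Kynu in spleen replicate 1 (0.812), Kmo in bone marrow replicate 4 (0.807) and Kmo in spleen replicate 3 (0.790) came close.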

How the results depend on the processing

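Kmo and Kynu were lower in bone marrow and past the threshold under all 16 alternatives, with log2 differences from -0.76 to -0.59 and from -2.18 to -1.78. With the mouse as a replicate block their adjusted p was 9.9e-04 and 4.7e-06, the 2 members called lower stayed 2, and among the named genes it ended the Ifngr2 call and made one for Tiparp. Leaving out each array gave Afmid values from -0.33 to -0.19, past the threshold without bone marrow replicate 3, Ido2 values from -0.061 to 0.080, and Qprt values from -0.031 to 0.22. The Ido2 difference was -0.0086 with array weights, and no direction is read for it or for Qprt. The causes of these changes were not tested. Tiparp made the count of higher genes in its list 1 with median centring, the dim filter, array weights or the replicate block, and 0 to 1 when leaving out each array. The count of higher starvation genes was 1 with the dimmest 40% left out, since Asns was not tested there. The count of lower ones was 2 with array weights and 1 to 2 when leaving out each array, through Sesn2, and the count of lower uptake genes was 0 to 1, through Slc7a5. The median log2 difference of all genes moved between -0.02 and 0.0070. Intensities without a detection call limit what can be said of the dim members Ido1, Tdo2 and Aadat, and also of Ido2 and Qprt.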
